A study of Mus musculus with 6 samples.

Results

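The 9 genes described here, Trpv1, P2rx3, Mrgprd, Scn9a, Scn10a, Scn11a, Calcb, Avil and Prdm12, are markers of sensory ganglion neurons. They were taken by gene name from a table of 37475 genes, and each name matched 1 row. They were selected on their counts in these same 6 libraries, so their levels per library are a description with no test, and the treatment contrast below reads the same counts. RNA sequencing had been done on polyadenylated RNA from the spinal cord of wild-type mice after a contusion, a blunt impact, at thoracic level 10. In the SCI+Syr group (3 libraries) the injured mice were given the plant glucoside Syringin intraperitoneally at 50 mg/kg a day for 3 days. In the SCI group (3 libraries) the injured mice were given PBS by the same route for 3 days. Tissue was taken 3 days after injury in both groups, so all animals were injured and no comparison with uninjured cord was made here. The sources used here do not give strain, sex, age or the length of cord taken. The libraries are called Syringin or PBS library 1 to 3 after the replicate number in their labels.

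Sensory ganglion neurons lie in the dorsal root ganglia, beside the cord and outside it, and send 1 axon branch to skin, muscle or viscera and another into the dorsal horn. Nociceptors, the ganglion neurons that detect harmful stimuli, carry channels that turn heat, acid, irritants or ATP into current and sodium channels that turn the current into spikes. Their peptidergic class releases neuropeptides such as CGRP, and their non-peptidergic class carries purine and Mas-related receptors. Adult spinal cord neurons are not known as a main source of most of these transcripts, although motor neurons express CGRP genes and some cord neurons express Scn9a.

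All 9 genes were high in Syringin libraries 1 and 3 and in PBS library 1, and low in Syringin library 2 and PBS libraries 2 and 3. The 3 highest values of each of the 9 genes came from these same 3 libraries. The summed level of the 9 genes was 174, 8.72 and 70.9 CPM (counts scaled to a common library size, with TMM factors) in Syringin libraries 1, 2 and 3, against 179.8, 15.4 and 14.2 CPM in PBS libraries 1, 2 and 3. The groups overlapped, since each held at least 1 high and 1 low library. In bulk tissue, fewer cells of a type and less RNA per cell cannot be told apart. Deposited totals ranged from 65579117 counts in Syringin library 2 to 78843034 counts in Syringin library 1. Among genes with a single transcript, a count of 4 occurred 1.5 times as often as its neighbours 3 and 5 did on average, so each fragment may stand for about 4 counts, and counting error may be larger than the totals imply.

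**Figure D1:**
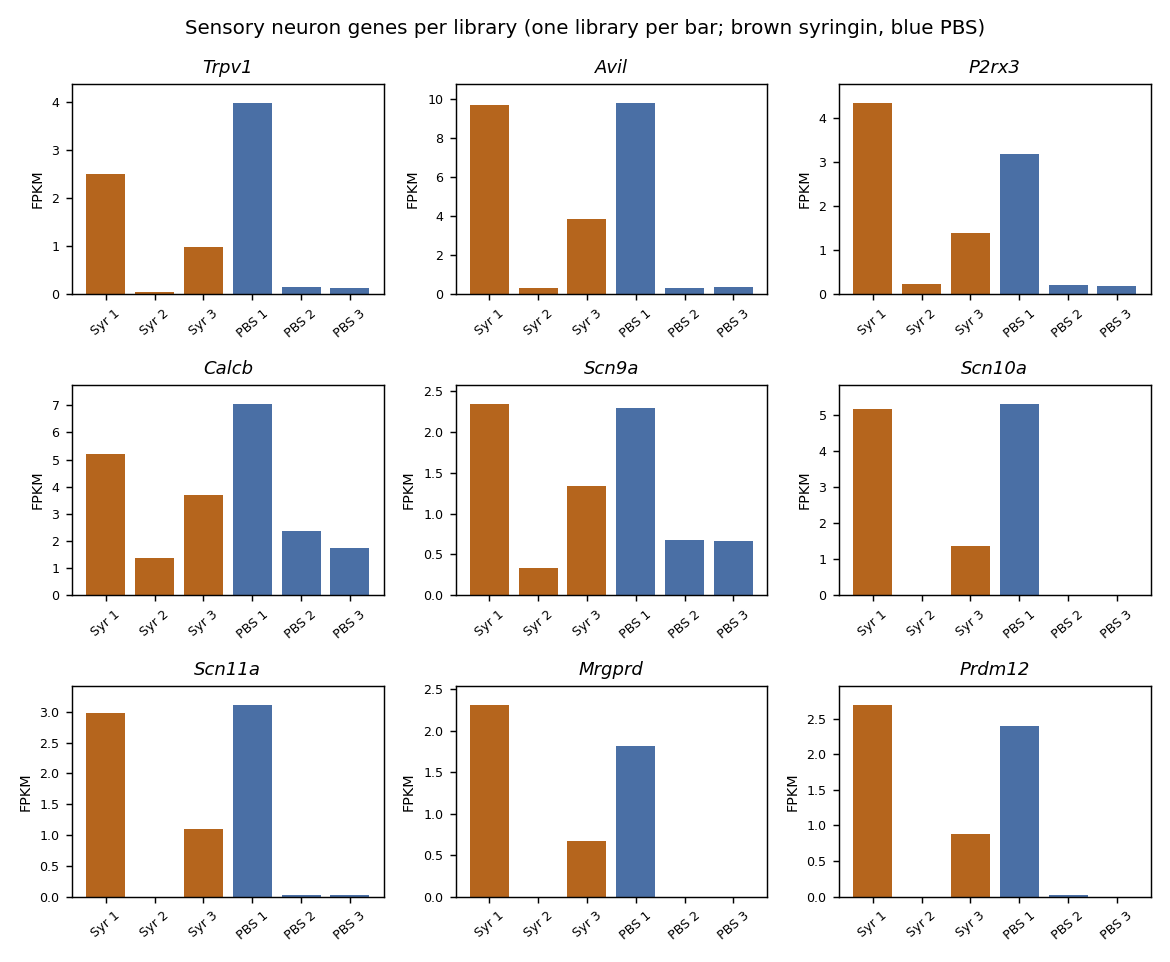
FPKM of each of the 9 genes, 1 bar per library, with the 3 Syringin libraries (brown) left of the 3 PBS libraries (blue); each panel has its own linear axis from 0. Avil reached 9.70, 0.30 and 3.87 FPKM in Syringin libraries 1, 2 and 3 and 9.82, 0.32 and 0.36 FPKM in PBS libraries 1, 2 and 3, and the other panels have their 3 tallest bars in the same libraries.

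Among the receptors and channels that detect a stimulus, Trpv1, the channel opened by heat and capsaicin, lies on chromosome 11 from 73125118 to 73152065 in the deposited table's coordinates. The build of those coordinates is uncertain: the submitters' notes name GRCm38, but none of the 9 starts was that of a GRCm38 annotation (GENCODE M21), while all 9 chromosomes were. Trpv1 had 9.84, 0.172 and 4.04 CPM in Syringin libraries 1, 2 and 3, against 15.8, 0.594 and 0.513 CPM in PBS libraries 1, 2 and 3. PBS library 1 was the highest of all, with 1191 counts, and Syringin library 2 the lowest, with 11 counts. P2rx3, a subunit of ATP-gated channels on nociceptor endings, had 12.9, 0.736 and 4.32 CPM in the Syringin libraries and 9.59, 0.639 and 0.542 CPM in the PBS libraries. The highest value of P2rx3, on chromosome 2 from 84828927 to 84867806, was therefore in Syringin library 1 and not in PBS library 1. Mrgprd, a Mas-related receptor for beta-alanine on non-peptidergic nociceptors of the skin, had 627, 0 and 159 counts in the Syringin libraries, against 466, 0 and 0 counts in the PBS libraries. With 0 counts, up to 3 fragments remain possible by counting error alone, so Mrgprd, on chromosome 7 from 144868572 to 144877823, was not detectable in 3 libraries at this depth.

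The 3 sodium channel alpha subunits of nociceptors did not share a floor. Scn10a (ENSMUSG00000034533) and Scn11a (ENSMUSG00000034115), whose channels resist tetrodotoxin, are neighbours on the minus strand of chromosome 9, at 119437522 to 119548388 and at 119582825 to 119654522 in the table's coordinates. Scn10a had 43.9, 0 and 12.0 CPM in Syringin libraries 1, 2 and 3, against 45.4, 0.223 and 0 CPM in PBS libraries 1, 2 and 3. Scn11a had 18.8, 0 and 7.22 CPM in the Syringin libraries and 19.8, 0.134 and 0.161 CPM in the PBS libraries. For both genes Syringin library 1 and PBS library 1 lay close together, and the low libraries were at or near 0. Scn9a, which sets the firing threshold of nociceptors and whose loss in humans removes the sense of pain, had 31.6, 4.70 and 18.8 CPM in the Syringin libraries, against 31.2, 9.30 and 9.23 CPM in the PBS libraries. Every library therefore held counts of Scn9a (chromosome 2, 66310424 to 66465296), and Syringin library 2 had the fewest, at 300.

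Calcb encodes beta-CGRP, a vasodilating neuropeptide of peptidergic sensory neurons that motor neurons also make. It had 7.02, 1.96 and 5.20 CPM in Syringin libraries 1, 2 and 3, against 9.59, 3.27 and 2.40 CPM in PBS libraries 1, 2 and 3. Like Scn9a, Calcb (chromosome 7, 114317878 to 114322600) had at least 125 counts in each of the 6 libraries, and it had the narrowest range of the 9 genes, with a standard deviation of 0.89 on the log2 CPM scale. Calcb and its paralogue Calca, which encodes calcitonin and alpha-CGRP, are similar enough to share reads, and the sources used here do not say how such reads were counted. Calca had 59.4, 6.84 and 37.6 CPM in the Syringin libraries and 86.6, 21.8 and 10.1 CPM in the PBS libraries, with the same 3 libraries highest.

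Avil encodes advillin, an actin-binding protein of the villin family found in nearly all sensory ganglion neurons, and was the most abundant of the 9 genes per transcript length in the 3 libraries where all were high. It had 35.2, 1.16 and 14.6 CPM in the Syringin libraries, against 35.9, 1.20 and 1.33 CPM in the PBS libraries. Prdm12 encodes a zinc-finger regulator needed for nociceptors to form, and its loss in humans causes congenital insensitivity to pain. It had 575, 0 and 164 counts in Syringin libraries 1, 2 and 3, against 480, 4 and 0 counts in PBS libraries 1, 2 and 3. Avil lies on chromosome 10 from 126836578 to 126856863 and Prdm12 on chromosome 2 from 31530049 to 31545807. With Scn10a, Scn11a and Mrgprd, Prdm12 is among the 4 genes listed at 0 in at least 1 library.

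Per transcript length, the order of the 9 genes was much alike in the 3 high libraries. Avil and Calcb were first and second in each of them, at 9.70 and 5.20 FPKM in Syringin library 1, 3.87 and 3.70 FPKM in Syringin library 3, and 9.82 and 7.05 FPKM in PBS library 1. Mrgprd was last in each, at 2.31, 0.67 and 1.82 FPKM. In Syringin library 2 and PBS libraries 2 and 3 the order was another: Calcb led at 1.37, 2.38 and 1.76 FPKM, and Scn9a followed at 0.33, 0.68 and 0.67 FPKM. The group means do not separate neighbours in this order, because each group held both kinds of library. Avil averaged 4.62 ± 4.75 FPKM in the Syringin group and 3.50 ± 5.47 FPKM in the PBS group (SD, n = 3 each), and Calcb averaged 3.42 ± 1.93 FPKM in the Syringin group and 3.73 ± 2.89 FPKM in the PBS group.

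Syringin library 1 and PBS library 1 carried nearly the same amount of these transcripts although they belong to different treatments. The ratio of Syringin library 1 to PBS library 1 in CPM had a median of 0.98 over the 9 genes and ran between 0.624 for Trpv1 and 1.35 for P2rx3, with 4 genes higher in Syringin library 1. Syringin library 3 held less. Its CPM had a median of 38.3% of that of Syringin library 1, between 27.4% for Scn10a and 41.4% for Avil among 7 genes, but 59.3% for Scn9a and 74.2% for Calcb, which also kept the most counts in the low libraries. Between the 9 genes, the 36 pairwise correlations of log2 CPM over the 6 libraries ran upward from r = 0.92, with a median of 0.97. These are descriptions of genes chosen for this pattern, over 6 points that share library and depth. By standard deviation of log2 CPM over the libraries, Scn10a, Mrgprd, Scn11a and Prdm12 ranked 2, 3, 4 and 5 among the 22114 genes tested, and Scn9a and Calcb ranked 1256 and 1901.

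The sequence just before the transcription start is shown for the genes in which a motif was found. RUNX and basic helix-loop-helix factors are known regulators of sensory neuron genes in the mouse. Whether such motifs bear on the levels in these libraries was not tested. RefSeq windows of GRCm38.p6 matched 7 of the 9 genes by symbol, P2rx3 and Calcb being the others. In the 250 bases before the start, both strands were searched for the RUNX letters TGTGGT and TGCGGT, the homeodomain letters TAATTA and the E-box letters CAGCTG. RUNX letters stood in 2 of the 7 windows, Avil and Trpv1, against 18.6% of all 32851 windows. The E-box letters stood in 1 of 7, Scn11a, against 13% of all windows, and TAATTA in 0 of 7, against 4.84%. The motif begins 25 bases before the start in Avil, 50 in Trpv1 and 59 in Scn11a, and no window held more than 1 of these motifs. The Avil window is chr10:127000459-127000708, plus strand, the Trpv1 window chr11:73233899-73234148, plus strand, and the Scn11a window chr9:119825457-119825706, minus strand. Capitals mark the motif, and a match is a description of these letters only.
Avil: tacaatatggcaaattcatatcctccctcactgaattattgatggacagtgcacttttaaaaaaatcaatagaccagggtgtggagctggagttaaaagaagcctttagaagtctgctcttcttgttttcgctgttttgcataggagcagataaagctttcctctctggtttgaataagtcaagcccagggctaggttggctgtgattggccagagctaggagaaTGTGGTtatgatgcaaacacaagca
Trpv1: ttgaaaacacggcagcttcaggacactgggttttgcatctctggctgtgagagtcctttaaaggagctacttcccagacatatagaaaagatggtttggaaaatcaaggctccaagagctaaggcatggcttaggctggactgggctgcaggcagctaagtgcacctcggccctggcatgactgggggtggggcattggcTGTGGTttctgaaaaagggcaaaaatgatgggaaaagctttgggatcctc
Scn11a: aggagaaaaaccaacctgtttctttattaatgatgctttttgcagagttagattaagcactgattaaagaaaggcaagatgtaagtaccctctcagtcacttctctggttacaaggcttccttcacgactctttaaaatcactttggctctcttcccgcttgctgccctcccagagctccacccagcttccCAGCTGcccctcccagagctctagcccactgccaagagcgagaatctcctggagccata

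The comparison of Syringin with PBS asked whether these transcripts differed with the treatment. In a quasi-likelihood fit by edgeR over all 22114 genes that passed the filter on low counts, with p-values adjusted by Benjamini and Hochberg's method, 0 of the 9 genes passed an adjusted p of 0.05, where 5.01% of all genes tested did. The 1108 genes behind that share became 1944, 436 and 251 without Syringin library 1, 2 or 3, and 263, 184 and 0 without PBS library 1, 2 or 3, where 3449 genes had an unadjusted p under 0.05 without PBS library 3. All 9 genes passed that filter. Fold changes were positive for 7 and negative for 2 of the genes, with a median of 0.37 on the log2 scale (Syringin minus PBS), beside 0.01 over all genes tested. P2rx3 had the smallest adjusted p of the 9, with a log2 fold change of 0.74 ± 1.35 (SE, adjusted p = 0.798). Mrgprd had a log2 fold change of 0.70 ± 2.27 and Prdm12 one of 0.57 ± 2.16. Avil was at 0.41 ± 1.65, Scn11a at 0.37 ± 2.19, Scn10a at 0.29 ± 2.41 and Scn9a at 0.15 ± 0.76. Calcb was at -0.11 ± 0.60 and Trpv1 at -0.26 ± 1.68. Each standard error was larger than its fold change, so these differences were within the spread between libraries. The 9 genes were chosen for their spread over these same libraries, so wide standard errors and few calls largely follow from the choice. The contrast therefore cannot show that the treatment left these transcripts unchanged. None of the 9 genes had an unadjusted p under 0.05, by edgeR, DESeq2 or limma-voom. The 2 groups overlapped for all 9 genes, where 30.0% of all genes tested had groups that did not overlap. The genes were chosen for a pattern with high and low libraries in both groups, so this overlap also follows from the choice.

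The direction of the fold change depended on which library was in the fit. Without PBS library 1, all 9 fold changes were positive (median 3.74), 3 genes had an unadjusted p under 0.05, and the smallest adjusted p was 0.189, for P2rx3. Without Syringin library 1, all 9 were negative (median -0.82). Without Syringin library 2, all 9 were positive (median 0.95), and without PBS library 2 or PBS library 3, 7 of 9 were negative in each case (median -0.14 in both). Without Syringin library 3 the signs were those of the full fit. Fitted fold changes without PBS library 1 reached 10.9 for Mrgprd, whose other PBS libraries were at 0, and such values depend on the small count that edgeR adds.

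**Figure D2:**
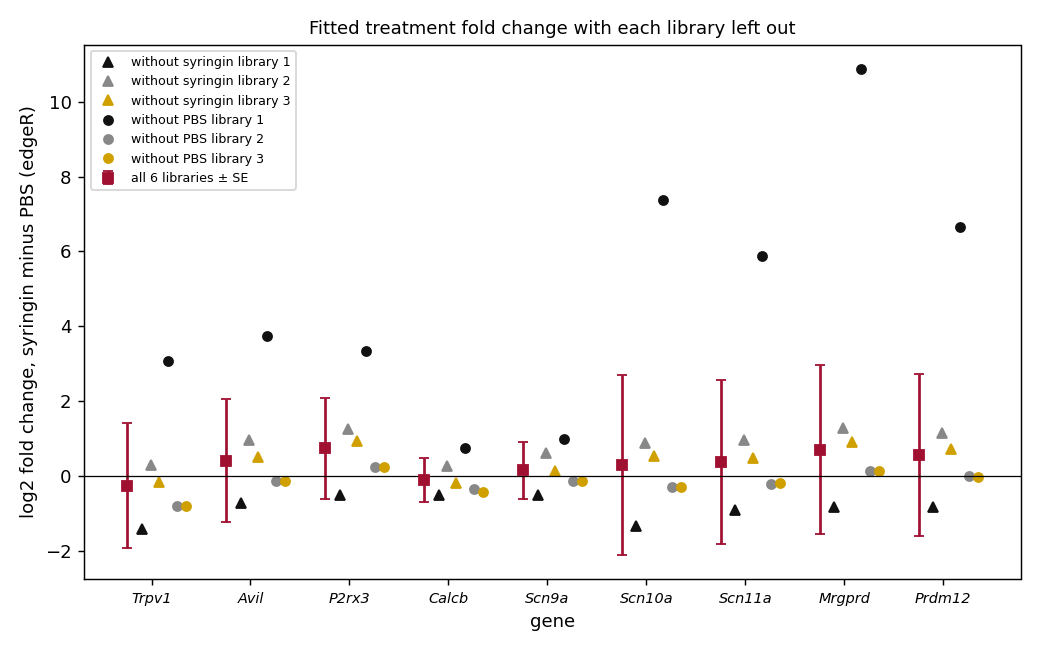
Log2 fold change of each of the 9 genes, Syringin minus PBS, by edgeR: squares with bars give all 6 libraries ± SE, triangles the fit without 1 Syringin library and circles the fit without 1 PBS library. The circles for the fit without PBS library 1 lie above 0 for all 9 genes and the triangles for the fit without Syringin library 1 lie below 0.

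Beyond the 9 genes, many other genes known from sensory ganglia, though not all, ran the same way across the libraries. Likeness was measured as Pearson's r over the 6 libraries between a gene's log2 CPM and the mean of the 9 genes, each centred on its own mean. That mean was 2.99, -3.15 and 1.68 in Syringin libraries 1, 2 and 3 and 3.03, -1.98 and -2.57 in PBS libraries 1, 2 and 3. Among 22105 other genes tested, 84 had r of 0.95 or more, which is 0.38%, and 47 had r of -0.95 or less. The 15 genes most like the 9 among 167 with a mean of at least 1 CPM and a standard deviation of log2 CPM of at least 1 included Pirt, Trarg1, Trpa1, Tlx2, Fxyd2, Ppm1j, Gfra3, Ppef1, Tmt1a3, Acp3, Lpar3, Ccdc68, Ppp1r1c and Asic3, with r between 0.968 for Asic3 and 0.998 for Pirt. Tmt1a3 has near-identical paralogues, so its counts are uncertain, and 6 of the 15 are on the list of other sensory neuron genes described below. Pirt had 3581, 17 and 1312 counts in the Syringin libraries, against 4056, 36 and 31 counts in the PBS libraries. Acp3 had 1971, 99 and 648 counts in the Syringin libraries and 1841, 72 and 102 counts in the PBS libraries. As the profile of the 9 genes has overlapping groups, genes chosen for likeness to it overlap too, and no treatment test is given for them.

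**Figure D3:**
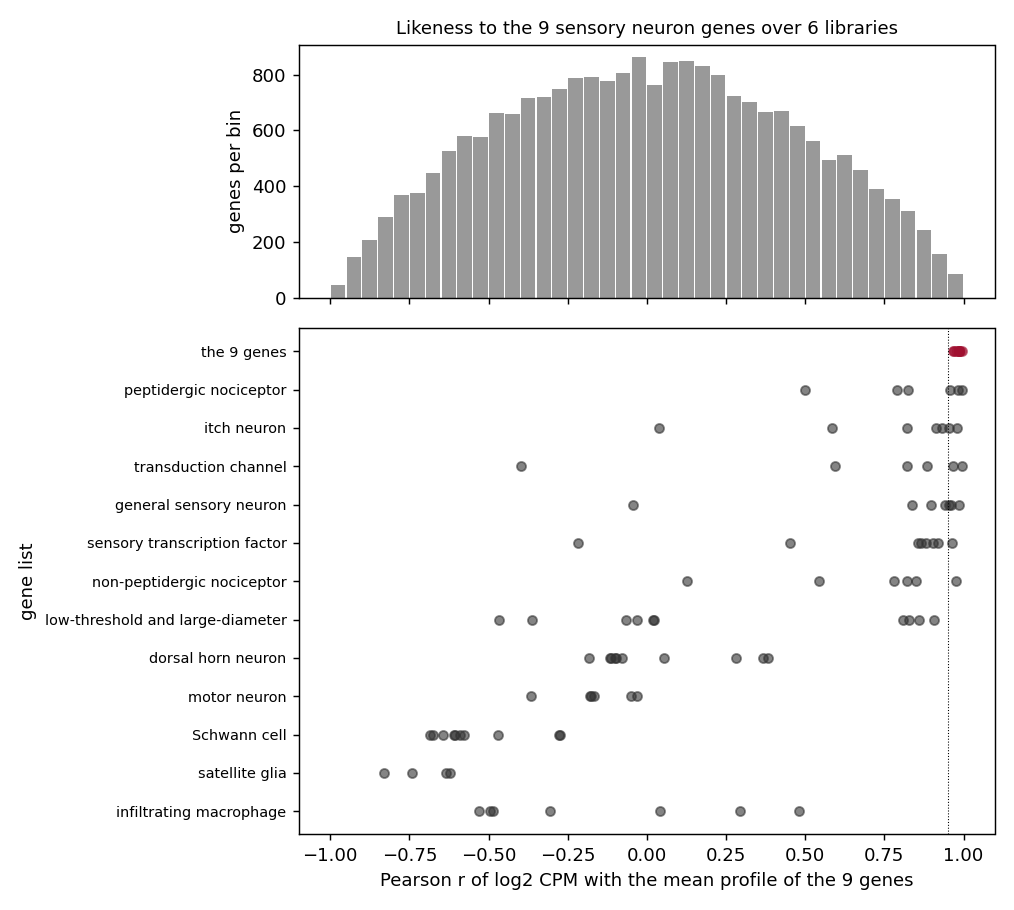
Upper panel, number of genes per bin of Pearson's r over 6 libraries with the mean profile of the 9 genes, for 22105 other genes tested; lower panel, r of each gene of 13 lists, the 9 genes each against the mean of the other 8, with a dotted line at 0.95. The 9 genes lie between 0.968 and 0.995, nociceptor lists reach above the line, and all 10 Schwann cell genes lie below 0.

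Of 51 other sensory neuron genes listed, 50 were tested and 12 (24.0%) had r of 0.95 or more, where 0.38% of all other genes tested did. The list was chosen with earlier results of these data known, so this share is a description only. The 12 included the irritant channel Trpa1 (r = 0.994), the glial-factor receptor Gfra3 (r = 0.982) and the itch receptor Mrgpra3 (r = 0.98). Trpa1 had 8.99, 0.673 and 5.07 CPM in Syringin libraries 1, 2 and 3, against 11.7, 0.847 and 0.909 CPM in PBS libraries 1, 2 and 3. Its 3 highest values were in the libraries where the 9 genes were high. Markers of rarer classes had few or no counts in some libraries. Mrgpra3 had 39, 0 and 11 counts in the Syringin libraries and 37, 3 and 0 in the PBS libraries, and Nppb, the natriuretic peptide of itch neurons, had 74, 3 and 87 counts in the Syringin libraries against 93, 0 and 0 in the PBS libraries. Il31ra, an itch cytokine receptor, had 475, 32 and 127 counts in the Syringin libraries against 372, 128 and 133 in the PBS libraries, so it was present in all 6. Kcnk18, a potassium channel of sensory neurons, had at most 24 counts, in PBS library 1. Trpm8, the cold channel, had 130, 7 and 14 counts in the Syringin libraries against 147, 19 and 0 in the PBS libraries, so Syringin library 3 held little of it.

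Several transcription factors and general markers of these neurons were highest in Syringin library 1 and PBS library 1 and lowest in Syringin library 2. Pou4f1, a homeodomain factor of sensory neurons, had 10.1, 1.41 and 4.91 CPM in the Syringin libraries, against 12.7, 3.72 and 3.17 CPM in the PBS libraries (r = 0.92). Isl1, which sensory and motor neurons share, had 4.70, 0.485 and 2.25 CPM in the Syringin libraries, against 6.61, 1.44 and 1.60 CPM in the PBS libraries (r = 0.90). Tlx3, also a dorsal horn factor, had 4.71, 0.83 and 2.90 CPM in the Syringin libraries, against 5.61, 3.00 and 1.66 CPM in the PBS libraries (r = 0.86), so PBS library 2 exceeded Syringin library 3. The intermediate filament gene Prph of peripheral and motor neurons had 96.0, 18.4 and 50.1 CPM in the Syringin libraries, against 128, 28.4 and 44.4 CPM in the PBS libraries. The substance P gene Tac1, which dorsal horn neurons also express, had 28.8, 8.96 and 20.8 CPM in the Syringin libraries and 39.98, 18.4 and 19.98 CPM in the PBS libraries. For Prph and Tac1, Syringin library 3 and PBS library 3 lay close together, unlike for the 9 genes.

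Markers of low-threshold and large-diameter sensory neurons divided. Th, the catecholamine enzyme of C-fibre touch neurons, had r = 0.86 and the ETS factor Etv1 r = 0.81. Since r does not measure the size of a change, Etv1 reached this value over a narrow range. It had 64.8, 58.4 and 70.8 CPM in Syringin libraries 1, 2 and 3, against 64.8, 56.6 and 51.4 CPM in PBS libraries 1, 2 and 3. Pvalb, the calcium buffer of proprioceptors and of cord interneurons, and the heavy neurofilament gene Nefh had r = 0.02 and r = -0.07. The touch channel Piezo2, also expressed by other cells, had r = 0.60, and the receptor tyrosine kinase gene Ret, which motor neurons share, r = 0.54. Of the 50 genes, 7 passed the adjusted threshold for treatment in edgeR, 1 higher and 6 lower in the Syringin group, where 1.62% and 3.39% of all genes tested did, and the median of the 50 was -0.07. Runx1, a nociceptor factor that blood cells also express, rose by 0.75 ± 0.13 (adjusted p = 0.0236), and Runx3 had 0.97 ± 0.25 (adjusted p = 0.0649). Nefh changed by -1.28 ± 0.19 and Pvalb by -0.95 ± 0.14, and Ntrk2, Ntrk3, Whrn and Trpm3 were the other 4 that fell. All 7 had r between -0.40 and 0.45. The groups of each of the 7 did not overlap, and such genes cannot closely follow a profile whose groups overlap. The count of 7 was 8, 4 and 2 without Syringin library 1, 2 or 3, and 3, 2 and 0 without PBS library 1, 2 or 3. Without PBS library 3, 10 of the 50 had an unadjusted p under 0.05 in edgeR.

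The other sodium channel genes had r from -0.25 to 0.51 with the profile of the 9 genes. Scn9a, Scn10a and Scn11a are part of that profile and were chosen with it, so their closer likeness follows from the choice. Of 10 further alpha and beta subunit genes, 5 fell with Syringin in edgeR's test and none rose, where 3.39% of all genes tested fell and 1.62% rose, and their median log2 fold change was -0.67, beside 0.01 over all genes. These 5 calls, like every other call in the table, were lost without PBS library 3. Scn1a of central neurons had 55.9, 42.0 and 48.8 CPM in the Syringin libraries, against 148, 105 and 134 CPM in the PBS libraries (-1.40 ± 0.15, adjusted p = 0.0114; r = 0.02). Scn8a, the subunit of nodes of Ranvier, changed by -1.03 ± 0.15 (adjusted p = 0.0181; r = 0.02). The groups of Scn1a and Scn8a did not overlap, unlike those of Scn9a, Scn10a and Scn11a, which by itself keeps r with the profile from being high. Within the Syringin group, Scn1a and Scn8a were highest in library 1 and lowest in library 2, as the 9 genes were. In the PBS group, Scn1a was highest in library 1 and Scn8a in library 3. Scn3a and Scn7a had -0.39 ± 0.16 and -0.41 ± 0.25 and did not pass (adjusted p = 0.195 and 0.369, edgeR). The r of Scn3a was 0.38 and that of Scn7a 0.51. Among 9 further TRPV and P2X genes none passed, with a median of 0.05, and among 7 paralogues of Calcb, Avil, Mrgprd and Prdm12 none passed, with a median of -0.03.

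Markers of the glia of nerves and ganglia had negative r with the 9 genes. Prx, which encodes periaxin of peripheral myelin, had 35.9, 60.1 and 22.3 CPM in Syringin libraries 1, 2 and 3, against 76.5, 262 and 181 CPM in PBS libraries 1, 2 and 3. Prx was therefore highest in PBS libraries 2 and 3, where the 9 genes were low. In Syringin library 2, where the 9 genes were also low, Prx was below its level in PBS library 1. All 10 Schwann cell genes had r below 0 (-0.69 to -0.27) and negative fold changes (median -1.49), and 2 of them, Ncmap and Drp2, passed the adjusted threshold, where 3.39% of all genes tested fell. The groups did not overlap for 7 of the 10, where 30.0% of all genes tested had such groups. Their r therefore also carries the difference between the groups. The summed level of the 10 was 423 to 678 CPM in the Syringin group and 790.2 to 2482 CPM in the PBS group. The 4 satellite glia genes, which cord glia also express, had r of -0.83 to -0.62, and none passed.

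**Figure D4:**
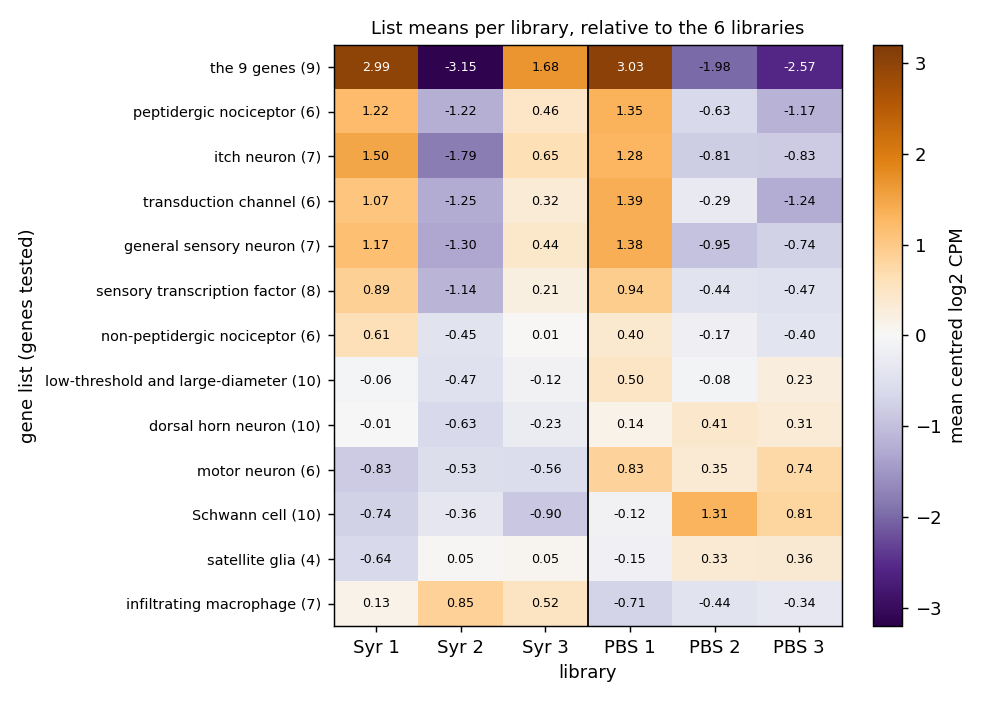
Mean log2 CPM of each gene list per library, each gene centred on its own mean over the 6 libraries, with Syringin libraries left of PBS libraries; the number of genes tested is in brackets. The 9 genes stand at 2.99, -3.15 and 1.68 in the Syringin libraries and 3.03, -1.98 and -2.57 in the PBS libraries, and the Schwann cell list at -0.74, -0.36 and -0.90 in the Syringin libraries and -0.12, 1.31 and 0.81 in the PBS libraries.

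Autonomic ganglion neurons share Scn9a and Prph with sensory neurons, and few counts of their own markers were found. Dbh, the noradrenaline enzyme, had 0 counts in all 3 Syringin libraries and 12, 7 and 0 counts in the PBS libraries. The summed level of the 7 autonomic genes in the table was 2.46 to 5.39 CPM in the Syringin group and 3.66 to 6.66 CPM in the PBS group. Of the 5 that were tested, Gata3 had r = -0.81 and the other 4, among them the nicotinic receptor genes Chrna3 and Chrnb4 that sensory neurons also express, had r of 0.54 to 0.74; none passed the treatment test. Cord neurons were measured beside them: the cholinergic gene Chat had 3.07, 3.54 and 3.54 CPM in the Syringin libraries and 10.4, 7.37 and 10.8 CPM in the PBS libraries (r = -0.18), and the glycine transporter gene Slc6a5 had 82.5, 72.3 and 68.4 CPM in the Syringin libraries and 163, 164 and 179 CPM in the PBS libraries (r = -0.18). Of 10 dorsal horn genes 2 fell and of 6 motor neuron genes 4 fell, where 3.39% of all genes tested did, and no call passed without PBS library 3. Their r ran from -0.18 to 0.38 for dorsal horn genes and from -0.37 to -0.03 for motor neuron genes.

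Axon damage and macrophage genes were read against the same libraries; 1.62% of all genes tested rose, and none did without PBS library 3. Of 7 genes that ganglion and other cells raise after axon damage, Atf3 rose (0.80 ± 0.17, adjusted p = 0.0414, edgeR) and 6 did not pass, Sprr1a at 0.65 ± 0.35; their r ran from -0.45 to 0.69. Of 7 macrophage genes 3 rose, Arg1, F10 and Clec4d, and the list median was 1.06. The summed level of the 7 was 1571, 4623 and 2727 CPM in Syringin libraries 1, 2 and 3, against 1093, 1364 and 1464 CPM in PBS libraries 1, 2 and 3. Most of that sum was the lysozyme gene Lyz2, at 816, 3673 and 1882 CPM in the Syringin libraries and 643, 952 and 1008 CPM in the PBS libraries, which did not pass (1.29 ± 0.49, adjusted p = 0.171, edgeR). Arg1, an arginine-degrading enzyme, had 443, 343 and 375 CPM in the Syringin libraries, against 253, 158 and 224 CPM in the PBS libraries, so it was not highest in Syringin library 2. The r of the 7 with the sensory profile ran from -0.53 for Lyz2 to 0.48 for Arg1. The part of sampled ganglion, nerve root and infiltrating cells in any treatment difference was not tested.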

How the data were processed

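Per the labels' protocols, TRIzol was used for RNA extraction and a stranded TruSeq mRNA kit for the libraries. The submitters' processing notes name HISAT2, StringTie and the builds GRCm38 and mm10, without versions. The values deposited for 37475 genes in 6 libraries are estimated counts, all of them whole and used unrounded, and FPKM made by the authors. Strand use in counting and the handling of shared reads are not given in the sources used here.

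Libraries were grouped by treatment label. Genes passing filterByExpr (minimum count 10, minimum total 15; 22114 genes) were TMM-scaled and tested in R 4.3.3 by the robust quasi-likelihood F-test of edgeR 4.0.16 (two-sided, Benjamini-Hochberg over all genes). Standard errors were derived from the log2 fold change and F. Log2 CPM used a prior count of 2. Alternatives used DESeq2 1.42.0, limma 3.58.1, other scalings and filters, and each library left out. Tables and figures used Python 3.11.15 with pandas 2.3.3 and matplotlib 3.10.9. The 9 genes and the lists were chosen with earlier results of these data known. Named genes are the 9, the 15 most like them (clone and predicted names left out) and genes fixed by name; called genes named beyond these were chosen after their values were seen, and a few genes of the rule are not reported here. Each library is labelled as a replicate from a mouse, and p-values measure the spread between these libraries. Correlations between same-numbered libraries in their deviations from the group means were 0.29, 0.12 and 0.05. With 3 libraries per group, deviations within a group depend on each other, so these values cannot settle whether the numbers pair the libraries. The main fit did not pair them.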

Additional observations from a re-analysis of the deposited data

How the results depend on the processing

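Over 18 alternative settings none of the 9 genes passed the adjusted threshold (smallest adjusted p = 0.189), and 25 of 162 alternative fold changes had the other sign, 21 of them with a library left out. With a library left out, log2 fold changes ran from -1.42 to 3.08 (Trpv1), -0.71 to 3.74 (Avil), -0.51 to 3.34 (P2rx3), -0.51 to 0.74 (Calcb), -0.51 to 0.99 (Scn9a), -1.35 to 7.37 (Scn10a), -0.90 to 5.87 (Scn11a), -0.82 to 10.9 (Mrgprd) and -0.84 to 6.66 (Prdm12). The fold change of Trpv1 turned positive with the replicate block (0.23), limma-voom (0.24), and limma on log2(FPKM + 0.1) (0.27) and log2(FPKM + 1) (0.058). Other genes kept their sign in the settings with all libraries but moved in size, with ranges of 0.28 to 2.03 for Scn10a, 0.32 to 3.03 for Mrgprd, 0.33 to 1.95 for Prdm12, 0.32 to 1.48 for Scn11a, 0.40 to 1.16 for Avil and 0.47 to 1.25 for P2rx3; the cause was not tested. The count of all genes called was 1108; it was 0 to 1944 with a library left out, 3191 by DESeq2 and 2557 with the replicate block. The replicate block called none of the 9 genes and 9 of the other 50 sensory genes, and only Syringin and PBS library 1 of the same-numbered libraries correlated best with each other. The count of 7 among those 50 ran from 0 to 8 with a library left out. Against 84 genes with r of 0.95 or more, 241 genes passed at r of 0.9 and 26 at r of 0.98. By Spearman's rho of 0.95 or more, counted afresh over all other genes tested, 52 passed. Over 6 libraries that rho needs the same or nearly the same order of libraries, so it is a different cut from an r of 0.95. Genes under a few counts are limited by depth, the more so if 1 fragment adds about 4 counts.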
